A study of Arabidopsis thaliana with 6 samples.

Results

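The SPL genes described here are the 10 SQUAMOSA PROMOTER-BINDING PROTEIN-LIKE genes of Arabidopsis thaliana whose transcripts are known targets of the microRNA miR156, namely SPL2 (AT5G43270), SPL3 (AT2G33810), SPL4 (AT1G53160), SPL5 (AT3G15270), SPL6 (AT1G69170), SPL9 (AT2G42200), SPL10 (AT1G27370), SPL11 (AT1G27360), SPL13 (AT5G50570) and SPL15 (AT3G57920). They were chosen by locus code, and 9 of the 10 were measured, among 27241 genes tested. SPL13 and its near-identical copy SPL13B were not analysed here. Whole seedlings of the mutant naa20-1, which according to the series' design text is depleted in the catalytic subunit of the N-terminal acetyltransferase complex NatB, were compared with seedlings of the wild-type accession Col-0, with 3 arrays per genotype. All seedlings were 17 days old and had grown untreated in short days, with 8.5 h of light at 100 µE, on 1x MS medium. The sources used here do not say how the naa20-1 allele changes the gene or whether the samples of a genotype were separate cultures. The p-values therefore measure only the spread between these arrays, which may be technical.

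SPL proteins are transcription factors that promote the change from juvenile to adult leaves and the transition to flowering. miR156 pairs with a site in their transcripts and lowers SPL output by transcript cleavage and by inhibition of translation. Young shoots hold much miR156; as a shoot ages the microRNA declines, SPL output increases, and SPL9 with its relatives activates MIR172b, whose product in turn represses AP2-like floral repressors. Leaf number, trichome position and mature microRNAs were not measured here, so developmental phase was not scored, and the values below are levels of transcripts and of precursor probe sets only.

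Values are log2 expression made by the authors with RMA, given as mean ± SD over 3 arrays, and every difference is naa20-1 minus Col-0. The 6 arrays had a median of 6.12 and a 25th percentile of 3.72, and Pearson correlations across probe sets were 0.993 to 0.995 within and 0.990 to 0.993 between genotypes. Calls were made where the adjusted p was under 0.05 (limma, Benjamini-Hochberg over the 27241 genes). In naa20-1, 104 genes were called higher (0.382%) and 209 lower (0.767%), together 1.15%. NAA20 itself stood at 8.10, 7.60 and 7.36 in naa20-1, all below its 8.79, 8.75 and 8.72 in Col-0 (difference -1.07, SE 0.18, adjusted p = 0.0407). The NAA20 call ended without any single array except naa20-1 replicate 1 (adjusted p from 0.0770 to 0.135). Green tissue genes were bright, with RBCS1A at 14.18 in both genotypes, and of 4 markers of flower organs 3 were below that 25th percentile.

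SPL4 rose in naa20-1, and none of the other 8 measured SPL genes passed the test. SPL4 was 1.54-fold higher, while the other 8 differences were all below 0 and ran from -0.47 for SPL5 to -0.09 for SPL3. Over all genes tested, 48.8% of differences were below 0. The median difference of the 9 genes was -0.16, beside 0.005 over all genes, and without naa20-1 replicate 2 it was -0.25. By the test, 1 of 9 was called higher, where the background was 0.382%, and 0 of 9 were called lower, where it was 0.767%. At an unadjusted p under 0.05 in limma, SPL4 was higher and SPL5, SPL11 and SPL15 were lower, 1 and 3 of 9, against 7.02% and 7.19% of all genes (14.2% in either direction). These same 4 were the genes whose 3 values in one genotype lay entirely outside those of the other; in that respect the background was 10.6% for higher and 10.5% for lower, together 21.0%. In whole seedlings, fewer cells of a type and less RNA per cell cannot be told apart.

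**Figure D1:**
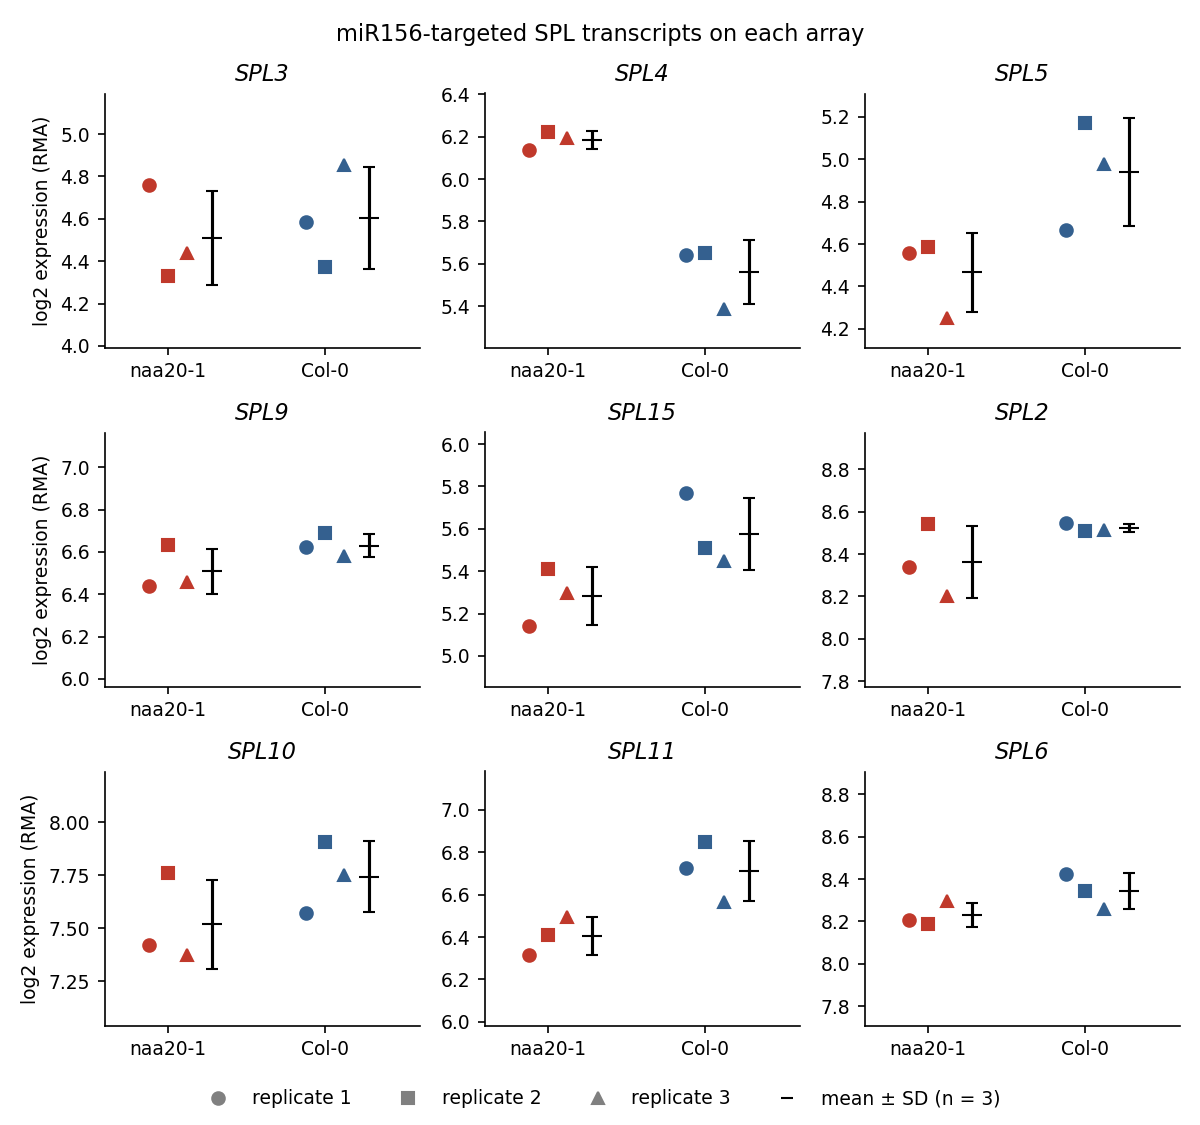
log2 expression (RMA) of the 9 measured miR156-targeted SPL genes on each of the 6 arrays, naa20-1 in red and Col-0 in blue, with marker shape giving the replicate and black bars the mean ± SD (n = 3). Every panel spans the same number of log2 units. SPL4 is higher on all 3 naa20-1 arrays, SPL5, SPL11 and SPL15 are lower on all 3, and the genotypes overlap for the other 5 genes.

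The first clade, SPL3, SPL4 and SPL5, encodes small proteins with little beyond the DNA-binding SBP domain, and is known for promoting floral meristem identity through genes such as FUL, LFY and AP1. In SPL4 the values were 6.14, 6.22 and 6.19 in naa20-1, against 5.64, 5.65 and 5.38 in Col-0. All 3 naa20-1 arrays were higher than every Col-0 array, and their spread was small (6.18 ± 0.04 in naa20-1 and 5.56 ± 0.15 in Col-0). The difference was 0.63 (SE 0.10, 95% interval 0.39 to 0.86, adjusted p = 0.0384 in limma). It lay close to the threshold: leaving out any 1 of the 6 arrays ended the call (adjusted p from 0.0933 to 0.124), with the difference then between 0.54 and 0.67. By size, 2.45% of all genes had a difference at least as large in either direction.

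SPL5, of the same clade, differed in the opposite direction. It stood at 4.56, 4.59 and 4.25 in naa20-1, against 4.67, 5.17 and 4.98 in Col-0. The genotypes did not overlap, but the highest naa20-1 value and the lowest Col-0 value were close together. The means were 4.47 ± 0.19 in naa20-1 and 4.94 ± 0.25 in Col-0, a difference of -0.47 (SE 0.15, 95% interval -0.83 to -0.11) that did not pass the test (adjusted p = 0.221).

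SPL3, a gene that in wild-type plants increases with age, stood at 4.76, 4.33 and 4.44 in naa20-1, against 4.58, 4.37 and 4.85 in Col-0. The genotypes overlapped. Its difference was -0.09 (SE 0.16, 95% interval -0.46 to 0.27, adjusted p = 0.835), and without Col-0 replicate 3 it was 0.0298. SPL3 and SPL5 were dim, at the 33.6th and 35.0th percentile of gene means, and with their errors only differences of at least 0.90 for SPL3 and 0.87 for SPL5 would have been called, against 0.58 for SPL4.

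The distance of SPL4 from the other SPL genes was also taken within each array. The gap of SPL4 over SPL5, with the mean gap of Col-0 set to 0, was 0.96, 1.01 and 1.32 in naa20-1, against 0.36, -0.14 and -0.22 in Col-0. The gap of SPL4 over SPL3 was 0.43, 0.94 and 0.80 in naa20-1, against 0.10, 0.32 and -0.42 in Col-0. Against the mean of the 8 other SPL genes, SPL4 stood at 0.82, 0.81 and 0.92 in naa20-1, against 0.10, 0.05 and -0.16 in Col-0. All 3 gaps were wider on every naa20-1 array than on any Col-0 array, by 1.10, 0.72 and 0.85 in the mean. For SPL5 and for the mean of the 8, this follows from the separate values. SPL4 was higher, and SPL5 and that mean were lower, on every naa20-1 array. These 3 gaps were chosen after the values were seen and are a description with no test, since the smallest two-sided p that an exact permutation of 3 against 3 arrays allows is 0.1.

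**Figure D2:**
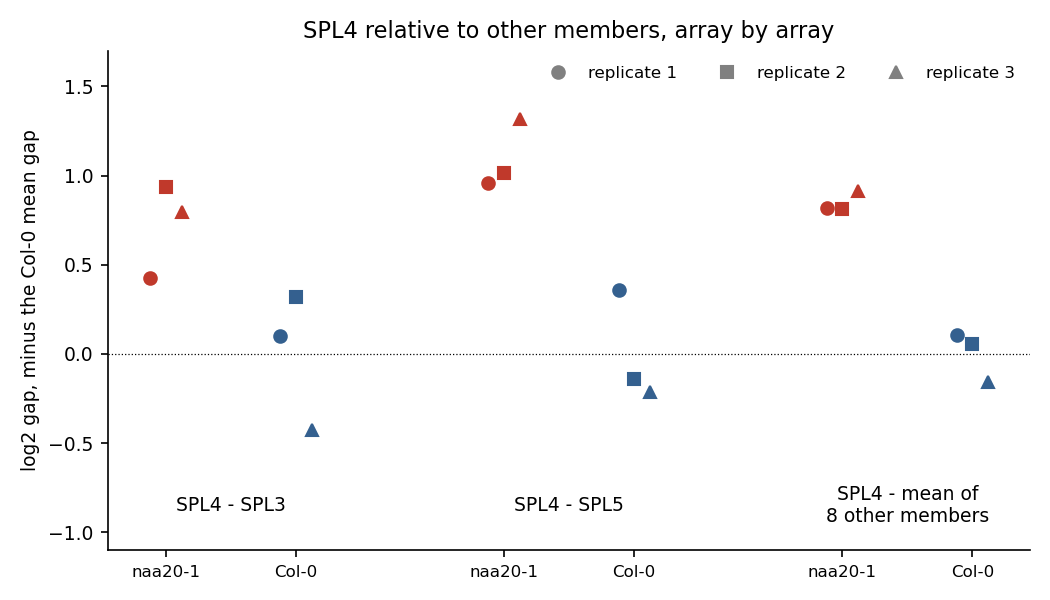
Difference in log2 expression between SPL4 and SPL3, SPL5 or the mean of the 8 other measured SPL genes, taken within each array and shown relative to the Col-0 mean gap (dotted line at 0). Points are arrays, naa20-1 in red and Col-0 in blue, and marker shape gives the replicate. In each of the 3 pairs of groups, the naa20-1 points lie above all Col-0 points.

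SPL9 and SPL15 form the pair best known for the juvenile-to-adult change of leaves and for the rate of leaf initiation, and SPL15 also for flowering at the shoot apex in short days. SPL9 stood at 6.44, 6.63 and 6.46 in naa20-1, against 6.62, 6.69 and 6.58 in Col-0. Only naa20-1 replicate 2 reached the Col-0 range. The difference was -0.12 (SE 0.09, 95% interval -0.33 to 0.09, adjusted p = 0.612), so that a fall to less than 0.793 of the Col-0 level and a rise to more than 1.07 times it lie outside the interval.

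SPL15 stood at 5.14, 5.41 and 5.30 in naa20-1, against 5.77, 5.51 and 5.45 in Col-0. The genotypes did not overlap, though naa20-1 replicate 2 and Col-0 replicate 3 nearly met. The means were 5.28 ± 0.14 in naa20-1 and 5.58 ± 0.17 in Col-0, a difference of -0.29 (SE 0.12, 95% interval -0.57 to -0.01) that did not pass the test (adjusted p = 0.325). A difference of at least 0.68 for SPL15 and 0.52 for SPL9 would have been needed for a call.

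SPL2, SPL10 and SPL11 act together on the shape of rosette and stem leaves, and SPL10 and SPL11 are direct neighbours on chromosome 1. SPL11 stood at 6.32, 6.41 and 6.50 in naa20-1, against 6.72, 6.85 and 6.57 in Col-0. The 3 naa20-1 values were all lower, and the difference of -0.31 (SE 0.10, 95% interval -0.55 to -0.06) did not pass the test (adjusted p = 0.241). SPL10 stood at 7.42, 7.76 and 7.37 in naa20-1, against 7.57, 7.91 and 7.75 in Col-0. The genotypes overlapped through naa20-1 replicate 2, and the difference was -0.22 (SE 0.14, 95% interval -0.54 to 0.10, adjusted p = 0.523).

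SPL2 stood at 8.34, 8.54 and 8.20 in naa20-1, against 8.54, 8.51 and 8.51 in Col-0. The Col-0 arrays were nearly equal (8.52 ± 0.02), and the naa20-1 arrays spread from that level downwards (8.36 ± 0.17). Its difference was -0.16 (SE 0.10, 95% interval -0.41 to 0.08, adjusted p = 0.552). The next genes outside this neighbouring pair, AT1G27350 beside SPL11 and RIC2 beside SPL10, differed by 0.02 (SE 0.09) and 0.18 (SE 0.18), with neither called.

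SPL6, which in Arabidopsis has been tied to immunity by intracellular receptors rather than to leaf identity, stood at 8.21, 8.19 and 8.29 in naa20-1, against 8.43, 8.34 and 8.26 in Col-0. The ranges overlapped. The difference was -0.11 (SE 0.09, 95% interval -0.32 to 0.09, adjusted p = 0.628), the narrowest interval of the 9 genes.

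**Figure D3:**
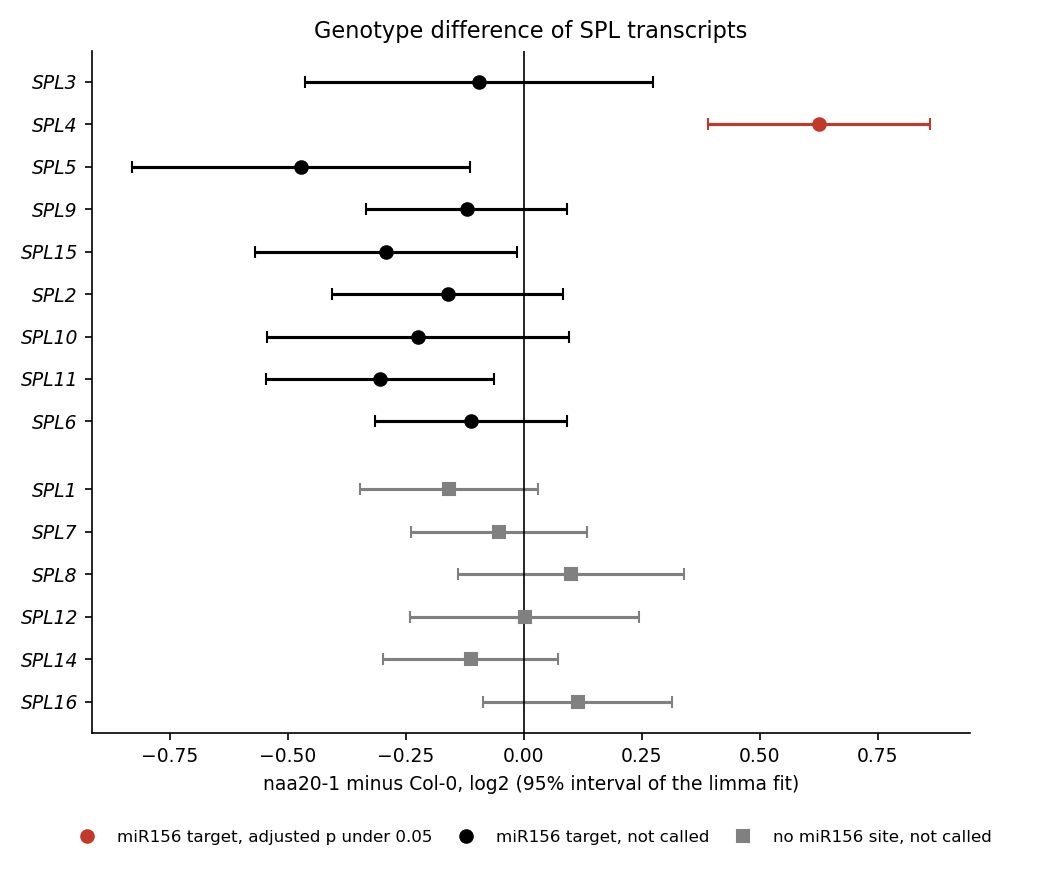
Difference in log2 expression, naa20-1 minus Col-0, with its 95% interval from the limma fit, for the 9 measured miR156-targeted SPL genes (circles) and 6 SPL genes with no miR156 site (squares). SPL4 at 0.63 is the only gene of the 15 that was called, shown in red; the intervals of SPL5, SPL11 and SPL15 lie below 0 without a call, and those of the others include 0.

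The naa20-1 arrays also differed among themselves. Replicate 2 had the highest value of the 3 for SPL2, SPL4, SPL5, SPL9, SPL10 and SPL15, and for SPL2, SPL9 and SPL10 it lay within the Col-0 range. For SPL3 and SPL6 replicate 2 was the lowest of the 3, and SPL11 was highest in replicate 3. Averaged over all 9 genes, the level relative to the Col-0 mean was -0.15, -0.06 and -0.18 in naa20-1 replicates 1 to 3. In Col-0 it was -0.01, 0.04 and -0.03. Without SPL4, the values were -0.24, -0.15 and -0.28 in naa20-1, against -0.02, 0.04 and -0.01 in Col-0. SPL4 was left out after its positive difference was seen, so a lower average of the other 8 follows from that choice. As a description over the 6 arrays, which share their genotype groups and normalization, SPL9 and SPL10 were the most alike pair (r = 0.90, and 0.85 for deviations from the genotype means), and SPL4 and SPL5 the least (r = -0.78, and -0.11 for deviations). The genes outside the family whose pattern was most like that of SPL4, among 13728 genes at or above the table's median, were AT3G12150, AT1G07080 and AT1G13920 (each r = 0.99 over 6 arrays). They were picked for their high r, and none of the 3 was called (adjusted p of 0.0726, 0.336 and 0.230 in limma).

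The 6 SPL genes with no miR156 site, which include the large proteins SPL1, SPL12 and SPL14 and the copper regulator SPL7, served as a comparison within the family. None of the 6 was called in limma, 0 had an unadjusted p under 0.05, and 3 differences were positive and 3 negative. In 2 of the 6, SPL1 and SPL14, the genotypes did not overlap, naa20-1 being lower, beside 21.0% of all genes without overlap. As log2 of summed linear values, the 6 stood at 11.80 to 11.84 in naa20-1 and 11.88 to 11.93 in Col-0. The miR156 targets, summed likewise, overlapped, at 10.111 to 10.261 in naa20-1 and 10.256 to 10.344 in Col-0. The median difference of the 6 was -0.02, beside -0.16 for the miR156 targets and 0.005 for all genes. SPL1 averaged 10.66 ± 0.04 in naa20-1 and 10.82 ± 0.05 in Col-0 (difference -0.16, SE 0.08, adjusted p = 0.441). SPL14 averaged 9.15 ± 0.04 in naa20-1 and 9.26 ± 0.03 in Col-0 (difference -0.11, SE 0.08, adjusted p = 0.586). The difference between the target and non-target groups was not tested.

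Upstream of the SPL genes, 9 of 12 precursors of miR156 and of the related miR157, which shares the SPL targets, had positive differences (median 0.29), and 2 rose. Among all genes tested, 48.8% of differences were below 0 and 0.382% were called higher. By their mean over the 6 arrays, 6 of the 12 precursors lay below the table's 25th percentile, MIR156F among them. MIR157A stood at 8.76, 8.57 and 8.77 in naa20-1, against 7.98, 7.85 and 7.88 in Col-0 (difference 0.80, SE 0.09, adjusted p = 0.0136). MIR156F stood at 3.89, 4.04 and 4.82 in naa20-1, against 2.70, 2.80 and 2.97 in Col-0 (difference 1.43, SE 0.23, adjusted p = 0.0394), with the Col-0 values below the table's 25th percentile of 3.72. Both genes were higher on all 3 naa20-1 arrays. The MIR157A call ended without any 1 of the Col-0 arrays (adjusted p from 0.0570 to 0.0691), and that of MIR156F without naa20-1 replicate 2 or any 1 of the Col-0 arrays (0.0863 to 0.133). A precursor probe set is assigned to the precursor locus, but the position of its probes is not stated. Overlaps of the precursor loci with other transcripts were not examined, and the mature microRNA was not measured.

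Genes that act on miR156 or on leaf phase, and those that make and use microRNAs, showed no called change. For the counts below, the shares of all genes were 1.15% called and 14.2% with an unadjusted p below 0.05 in limma. Of 14 upstream regulators of miR156 and phase change, among them the chromatin factors PKL, BRM, SWN and CLF and the trans-acting siRNA genes AGO7, RDR6 and SGS3, 0 were called and 3 had an unadjusted p below 0.05 in limma (median difference -0.02). AGO7, the argonaute that limits adult traits in young shoots, averaged 6.77 ± 0.11 in naa20-1 and 7.13 ± 0.13 in Col-0 (difference -0.36, SE 0.11, adjusted p = 0.186). SWN, a Polycomb methyltransferase, averaged 8.63 ± 0.09 in naa20-1 and 8.33 ± 0.08 in Col-0 (difference 0.30, SE 0.09, adjusted p = 0.198). Of 7 genes of microRNA biogenesis and action, 0 were called and 1 had an unadjusted p below 0.05 in limma; HEN1, which methylates microRNA ends, differed by 0.29 (SE 0.10, adjusted p = 0.235) and SE, a processing cofactor, by -0.13 (SE 0.08, adjusted p = 0.542).

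Downstream of the SPL genes, 1 of 8 listed genes fell and the other 7 did not pass the test (median difference -0.07). The share of all genes called lower was 0.767%. TRY, a small MYB protein that represses trichomes and is known as a direct SPL9 target, fell in naa20-1. It stood at 7.58, 7.57 and 7.44 in naa20-1, against 8.88, 8.83 and 8.69 in Col-0. All 3 naa20-1 arrays were lower by more than the whole spread of either genotype, a 2.41-fold difference (log2 -1.27, SE 0.09, adjusted p = 0.00277) that was called with every array left out in turn (adjusted p from 0.0128 to 0.0220). SPL9 itself differed by -0.12 and was not called.

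The other trichome repressor of the list, TCL1, lay near the 25th percentile of the table and differed by -0.20 (SE 0.12, adjusted p = 0.523). AGL42, a MADS-box gene of the floral transition, stood at 4.29, 3.88 and 4.56 in naa20-1, against 4.81, 4.62 and 4.73 in Col-0. The naa20-1 values were all lower, and the difference of -0.47 (SE 0.17, adjusted p = 0.262) did not pass the test. SOC1, a floral integrator activated by SPL9 and SPL15, was at 6.20 ± 0.23 in naa20-1 and 6.24 ± 0.09 in Col-0 (difference -0.04, SE 0.13, adjusted p = 0.921). FUL and AP1 were dimmer than the table's 25th percentile in both genotypes, and LFY differed by 0.12 (SE 0.12, adjusted p = 0.705). DFR, an anthocyanin gene that SPL9 is known to lower, was at 7.63 ± 0.85 in naa20-1 and 6.94 ± 0.15 in Col-0, a difference of 0.69 within a wide spread (SE 0.37, adjusted p = 0.464).

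In the miR172 branch, 0 of 5 MIR172 precursors were called, with 1 at an unadjusted p below 0.05 in limma, and 4 of the 5, MIR172B among them, were dimmer than the table's 25th percentile. MIR172A differed by -0.40 (SE 0.16, adjusted p = 0.323) and MIR172E by -0.20 (SE 0.11, adjusted p = 0.462). Of the 6 AP2-like repressors targeted by miR172, 0 were called and 3 had an unadjusted p below 0.05 in limma, 2 higher and 1 lower. At that p, the shares of all genes were 7.02% higher and 7.19% lower. The higher genes were SMZ and TOE2. SMZ differed by 0.43 (SE 0.16, adjusted p = 0.273 in limma), without overlap of the genotypes. TOE2, which holds back flowering and adult leaf traits, stood at 9.67, 9.67 and 9.81 in naa20-1, against 9.38, 9.34 and 9.26 in Col-0 (difference 0.39, SE 0.09, adjusted p = 0.0983). SNZ, a floral repressor of the same group, stood at 8.83, 8.83 and 8.85 in naa20-1, against 9.15, 9.32 and 9.27 in Col-0 (difference -0.41, SE 0.08, adjusted p = 0.0819). The genotypes did not overlap in either gene, TOE2 being higher and SNZ lower in naa20-1. Both were called when the dimmest 40% of probe sets were left out (adjusted p of 0.0461 for TOE2 and 0.0357 for SNZ). The same held when the fit had both a variance trend and the robust setting (0.0138 and 0.0126). Neither was called under any other alternative. With the replicate block the adjusted p was 0.206 and 0.166, and with 1 array left out 0.161 to 0.265 for TOE2 and 0.135 to 0.239 for SNZ.

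**Figure D4:**
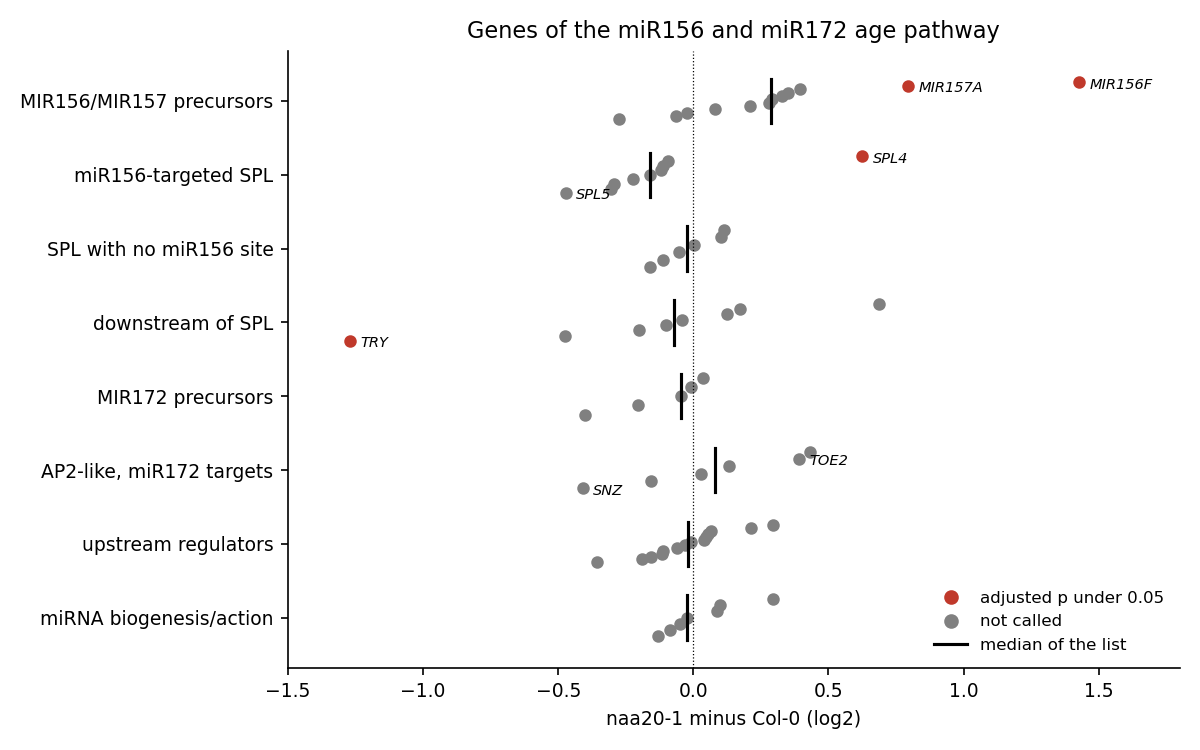
Difference in log2 expression, naa20-1 minus Col-0, of each measured gene in 8 lists of the miR156 and miR172 age pathway. Each point is a gene, red where called and grey otherwise, and the black bar is the median of its list. The called genes are MIR156F, MIR157A and SPL4 on the higher side and TRY on the lower side, and the medians lie at 0.29 for the precursors and -0.16 for the miR156-targeted SPL genes.

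Markers of shoot, root, leaf and seed tissue were also compared between the genotypes, and their part in the SPL values was not tested. As background for the counts, 1.15% of all genes were called and 14.2% had an unadjusted p below 0.05 in limma. Differences below 0 made up 48.8%. Of 8 shoot apex markers 0 were called, 2 had an unadjusted p below 0.05 in limma, both higher, 3 differences were positive and 5 negative, and their summed level, as log2 of the sum of linear values, was 10.50 to 10.67 in naa20-1 and 10.54 to 10.58 in Col-0. CLV3 and WUS were dimmer than the table's 25th percentile in both genotypes, while the meristem genes KNAT1 and STM each differed by 0.26 (SE 0.10 for both, adjusted p of 0.284 and 0.323) without overlap of the genotypes. CLV1 and ANT had differences of -0.22 (SE 0.14) and -0.20 (SE 0.10). The genotypes did not overlap in ANT either, which was lower in naa20-1. Such a lack of overlap was seen in 21.0% of all genes. Of 8 root markers 0 were called, 5 had an unadjusted p below 0.05 in limma and 7 differences were negative, with a summed level of 11.47 to 11.61 in naa20-1 and 11.81 to 11.90 in Col-0. The 5 with an unadjusted p below 0.05 were CASP1 to CASP5. Of these endodermal genes, CASP4 and CASP1 had the smallest p, with differences of -0.59 (SE 0.13, adjusted p = 0.102) and -0.40 (SE 0.10, adjusted p = 0.122). The other root markers, SCR, SHR and PLT1, differed by 0.08 (SE 0.12), -0.005 (SE 0.13) and -0.05 (SE 0.10). The 4 green leaf markers summed to 14.91 to 14.92 in naa20-1 and 14.95 to 14.96 in Col-0, with 0 called. RBCS1A, the brightest, was 14.18 on every array and weighs most in the sum, which can therefore show little difference. The other 3 were negative: LHCB1.3 at -0.22 (SE 0.08, adjusted p = 0.268), LHCA1 at -0.13 (SE 0.17) and RCA at -0.05 (SE 0.08). Of 4 seed markers, the storage proteins CRA1 and CRU3 rose (differences of 3.07 and 1.25, adjusted p of 0.0150 and 0.00918), and the summed level was 8.44 to 9.41 in naa20-1 and 6.54 to 6.90 in Col-0. EM1 lay under the 25th percentile in both. The CRA1 call ended without naa20-1 replicate 2 or Col-0 replicate 1 or 3 (adjusted p from 0.0545 to 0.0704), and that of CRU3 without Col-0 replicate 1 or 3 (0.0556 and 0.0533).

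Some SPL loci overlap other loci in the gene table, and the position of the probes is not stated, so a probe set may also read the overlapping transcript. SPL3 overlaps the non-coding RNA AT2G33815, which differed by -0.03 (SE 0.19, adjusted p = 0.968), and SPL5 overlaps AT3G15260, which differed by -0.22 (SE 0.10, adjusted p = 0.402). SPL6 overlaps CRC (0.07, SE 0.12) and SPL15 overlaps AT3G57910 (0.01, SE 0.13), neither of them called. SPL4 overlaps a locus listed as MIR156i and SPL9 one listed as MIR156j, which were not analysed here.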

How the data were processed

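The deposited log2 expression values had been made by the authors with RMA, which corrects background, equalises the arrays by quantiles and summarises probes, per the submitters' processing notes. Total RNA had been labelled with biotin by the Affymetrix procedure, per the labels' protocols. The sources used here do not name the array type, probe set definition or software. Without detection calls, dim values may be background, and 3 arrays per group limit the precision.

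Of 27827 probe sets, 27241 matched the gene table of assembly TAIR10.1, used for names, neighbours and overlaps only. The fit used limma 3.58.1 (lmFit, eBayes; R 4.3.3) with genotype as the only term, two-sided, and was checked on simulated data. Intervals are the 95% intervals of that fit. Members and lists were chosen with earlier results of these data known. Named were all members, NAA20, every called member of the pathway lists (the 2 with the smallest p where fewer than 2 were called), and 3 genes most like SPL4. TCL1, SOC1, FUL, AP1, LFY, DFR, SMZ, the tissue markers and the genes beside or over SPL loci were named after their values were seen.

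Alternatives were a repeated quantile normalization, median centring, removal of the dimmest 40% of probe sets, a variance trend with robust fit, adjustment over all probe sets, a block for the replicate number, and each array left out in turn.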

Additional observations from a re-analysis of the deposited data

How the results depend on the processing

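Among the SPL genes, every direction was kept with each array left out in turn, except that of SPL3 without Col-0 replicate 3. The SPL3 difference ran from -0.22 to 0.0298 over the arrays left out. The other alternatives could not test direction. The variance trend with robust fit, wider adjustment, removal of dim probe sets and replicate block do not alter a gene's difference. Repeated quantile normalization and median centring moved it little, since the arrays had already been equalised by quantiles. The SPL4 difference stayed between 0.6253 and 0.6255 under these other alternatives. SPL4 was called with repeated quantile normalization, median centring, removal of dim probe sets, variance trend with robust setting, and all probe sets (adjusted p from 0.0174 to 0.0401); with the replicate number as a block it was not (adjusted p = 0.0954), which left 0 SPL genes called. Leaving out 1 array left 0 SPL genes called in each case, with the median of the SPL differences between -0.25 and -0.14. Removal of dim probe sets took out SPL3 and SPL5. Over all genes, a variance trend with robust fit gave 311 higher and 486 lower, the replicate block 61 and 129, and leaving out 1 array 11 to 63 and 51 to 134. Deviations of same-numbered arrays had low correlations (0.02, 0.06 and 0.01). The most alike Col-0 array bore the same number for naa20-1 replicates 1 and 2, and was replicate 1 for naa20-1 replicate 3. Whether the replicate numbers mark pairs was not tested. The replicate block also took NAA20 over the threshold (adjusted p = 0.0542). CASP1 and LHCB1.3 were called lower with the variance trend and robust setting together (adjusted p of 0.0123 and 0.0428). The causes were not tested, beyond there being fewer arrays in the fits that leave one out. SPL3 and SPL5 were the dimmest SPL genes and had the largest standard errors (0.16 and 0.15).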
